A study of Mus musculus with 2 samples.

Results

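The 10 genes described here mark the endothelium, the cell layer that lines blood vessels and the heart chambers. They are Kdr and Flt1, which encode receptors for vascular endothelial growth factor (VEGF), Tek and Tie1, which encode receptors of the angiopoietin system, Cdh5 and Pecam1, which encode adhesion proteins of the endothelial junction, Nos3, which encodes endothelial nitric oxide synthase, and Sox7, Sox17 and Sox18, the SoxF transcription factor genes. They were picked by function, not by a peak value, but with earlier results of these data known. They are 10 of the 21755 protein-coding genes annotated on the autosomes and chromosome X. Around them, every summit (the highest point of a peak) in the authors' optimal list within 100 kb of the GENCODE M21 gene record was taken. This gave 91 of 44518 summits, each near 1 member only. Signal is the authors' value of a peak's strength, pooled over both libraries unless a library is named. At the edge of this window lay summits at 99.11 kb (Nos3, signal 185) and 98.67 kb (Sox7, 158) from the record on the inner side, and at 101.01 kb (Pecam1, 52.2) and 101.4 kb (Sox18, 101) on the outer side.

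CTCF was mapped by chromatin immunoprecipitation and sequencing in whole heart of B6NCrl mice on the day of birth (age 0 days), with no treatment or genotype change given. The 2 libraries, replicate 1 and replicate 2, form 1 group. The labels number them as biological replicates but also give them 1 shared tissue sample and 1 shared donor. Their SDs may thus be technical. Sex was not collected. The authors' optimal list holds 44533 reproducible peaks, of which 44518 lie on chromosomes 1 to 19, X and Y. No contrast of conditions exists in 1 group, so values are described beside those of all protein-coding genes or all optimal peaks, without a test. Read depth is unknown, and so is the counting error on a signal.

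CTCF is a zinc finger protein that binds a long, directional motif. Together with cohesin it anchors chromatin loops, most often between sites whose motifs face each other, and it can keep an enhancer from acting on a promoter across it. Endothelial genes are switched on by distal enhancers bound by ETS, GATA and SOX factors, and such enhancers act within the loops and domains that CTCF helps to set. Heart tissue at birth holds myocytes, endothelial cells, fibroblasts and other cells. A peak cannot be assigned to one of them, and fewer cells with a bound site cannot be told apart from weaker binding in every cell. Peaks carry no measure of expression, so the presence of endothelial cells was not checked by markers.

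The sequences below show the CTCF core at the strongest core-bearing site of 7 members and at the site in the Sox7 promoter. Each is 60 bases of the RefSeq GRCm38.p6 genome (mm10) read 5′ to 3′ on the strand of the core, with the 14 bases of the core in capitals. Nos3, Flt1, Cdh5 and Sox18 had the 4 highest signals of the members, the Kdr site lies beyond the gene's 3′ end, Sox17 and Tek had the fewest summits, and the Sox7 site is the one within 1 kb of a member's 5′ end. Mismatches are counted against the consensus core.
Nos3 (chr5:24361013-24361072, plus strand, 2 mismatches): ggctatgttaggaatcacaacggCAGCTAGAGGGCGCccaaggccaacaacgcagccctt
Flt1 (chr5:147584106-147584165, plus strand, 0 mismatches): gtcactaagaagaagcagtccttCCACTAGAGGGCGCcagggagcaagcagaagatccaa
Cdh5 (chr8:104028828-104028887, minus strand, 1 mismatch): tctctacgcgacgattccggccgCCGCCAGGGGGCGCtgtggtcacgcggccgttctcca
Sox18 (chr2:181678966-181679025, minus strand, 1 mismatch): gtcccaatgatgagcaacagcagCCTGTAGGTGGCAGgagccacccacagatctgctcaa
Kdr (chr5:75871294-75871353, plus strand, 1 mismatch): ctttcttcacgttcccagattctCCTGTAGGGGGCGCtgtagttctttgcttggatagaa
Sox17 (chr1:4516713-4516772, plus strand, 1 mismatch): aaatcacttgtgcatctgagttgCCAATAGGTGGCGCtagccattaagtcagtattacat
Tek (chr4:94900871-94900930, minus strand, 0 mismatches): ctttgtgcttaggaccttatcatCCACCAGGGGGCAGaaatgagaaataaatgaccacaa
Sox7 promoter (chr14:63943519-63943578, minus strand, 2 mismatches): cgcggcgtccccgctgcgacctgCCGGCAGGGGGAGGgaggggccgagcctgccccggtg

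The windows around these cores differ in base composition. The Sox7 promoter window was 83.3% G and C with 8 CpG dinucleotides, and that of the Cdh5 site was 71.7% with 10. The Sox17 window was 41.7% G and C with 1 CpG, and the Tek window was 43.3% with none. In the Sox7 promoter more than 1 position matched the core equally well, and 1 of them is printed.

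Within 10 kb of the 5′ end of the gene record, 7 of the 10 members had an optimal summit (Kdr, Flt1, Cdh5, Pecam1, Nos3, Sox7 and Sox18), where 50.8% of all protein-coding genes had one. From the 5′ end of the principal transcript, the nearest Pecam1 summit lay outside this window, at 27.41 kb. With only the peaks at or above the median signal of the list, 4 of 10 had a summit within 10 kb of the record's 5′ end, against 31.4% of protein-coding genes. Within 1 kb only Sox7 had one, 1 of 10, and 21.4% of all protein-coding genes did. All 10 had a summit within 100 kb of the record, as did 90.4% of protein-coding genes. The median distance from the 5′ end to the nearest summit was 4.40 kb for the members and 9.64 kb for all protein-coding genes. With only the peaks at or above the median signal the order turned, at 33.7 kb for the members and 21.6 kb for all protein-coding genes.

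**Figure D1:**
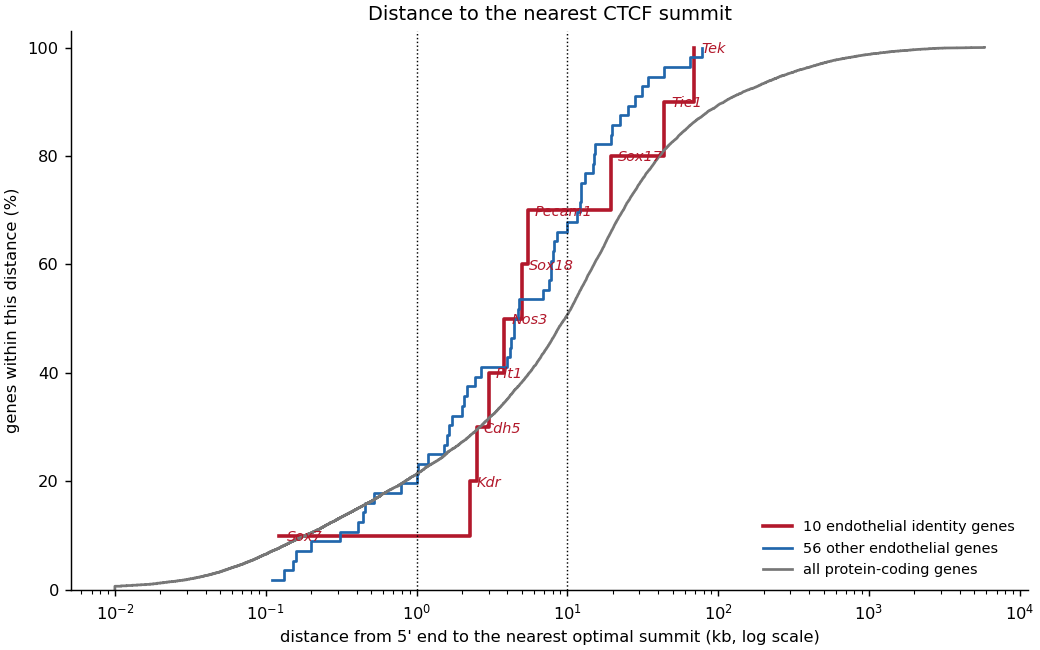
Distance from the 5′ end of each gene to the nearest optimal CTCF summit (x axis, kb, log scale, distances under 10 bp drawn at 10 bp) against the percentage of genes within that distance (y axis), for the 10 endothelial identity genes, 56 other endothelial genes and all protein-coding genes, with dotted lines at 1 and 10 kb. Of the 10 genes, 1 lies left of 1 kb and 7 lie left of 10 kb.

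The summit nearest to a member's 5′ end was its strongest within 100 kb at Nos3, Sox17 and Tek, and at the other 7 a stronger one lay farther off. The nearest summits had a median pooled signal of 30.1, against 58.7 for the nearest summits of all protein-coding genes, and 6 of 10 lay below the median of the optimal list (60.8), against 51.5% of protein-coding genes. The strongest summits within 100 kb of the members had a median of 215, against 192 over all protein-coding genes that have one.

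**Figure D2:**
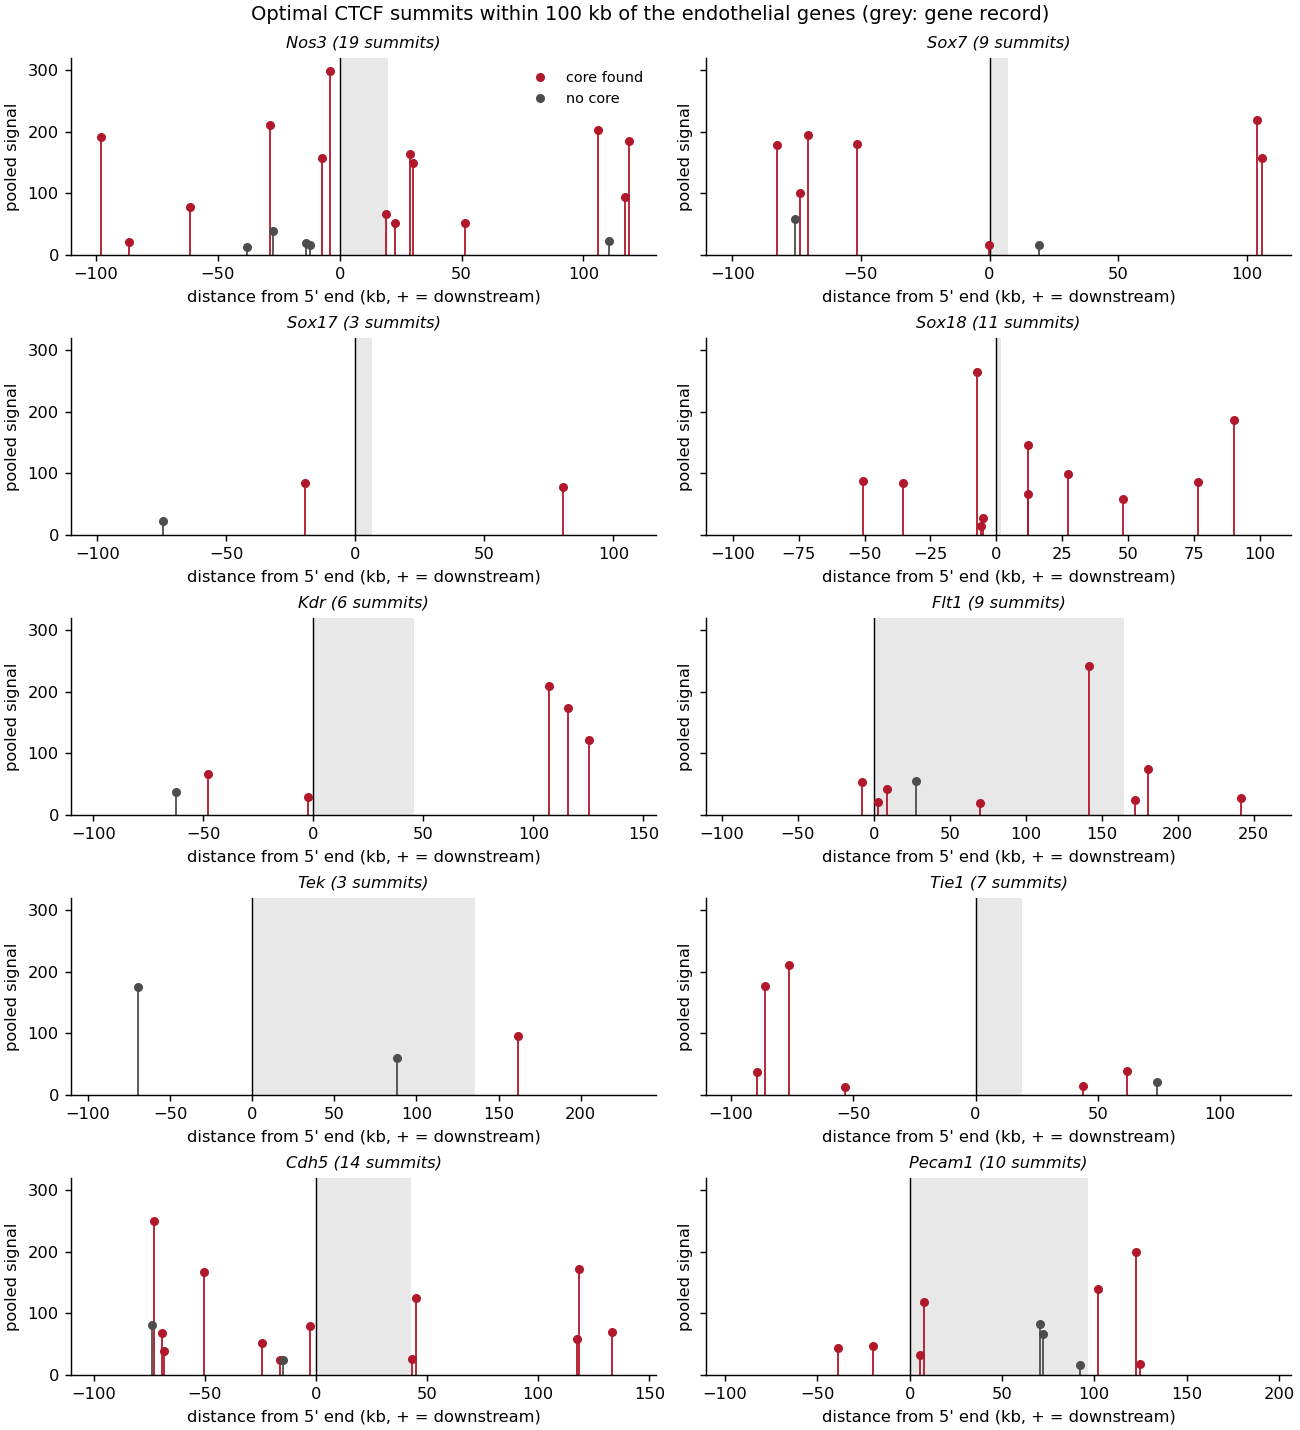
Optimal CTCF summits around each of the 10 genes, by distance from the 5′ end (x axis, kb, positive values downstream) and pooled signal (y axis), with the gene record in grey and colours for summits with and without a core. Nos3 has 19 summits and the strongest of them, at 299, while Sox17 and Tek have 3 each.

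Kdr encodes VEGF receptor 2, the main signalling receptor for VEGF-A. Its gene record (chromosome 5, 75932827 to 75978458, minus strand) had 6 summits within 100 kb and none inside. The nearest summit, 2.25 kb upstream and intergenic, was weak, with signals of 16.3 in replicate 1 and 10.5 in replicate 2 (13.4 ± 4.06, SD, n = 2; pooled 28.6). The strongest sites stood in a row beyond the 3′ end, at 107.13, 115.67 and 125.19 kb from the 5′ end, with pooled signals of 209.5, 173 and 121. At the strongest of these, whose core is printed above, the libraries gave 112.8 and 96.7 (104.8 ± 11.4, SD, n = 2). The gap between the site 2.25 kb upstream and this row held the whole gene and no other optimal summit, and Kdr was the one protein-coding gene with a 5′ end within 100 kb of its record.

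Flt1 encodes VEGF receptor 1, which binds VEGF-A tightly and limits its supply to Kdr. It is the longest member, with a record of 164.41 kb (chromosome 5, 147561604 to 147726011, minus strand), and held 5 of its 9 summits inside. The nearest, 3004 bp downstream of the 5′ end in intron 1, had 11.8 and 9.75 in the libraries (10.8 ± 1.43, SD, n = 2; pooled 20.2). A second lay in intron 1 at 8.99 kb (pooled 41.9), and others lay in introns 3 (55.6) and 10 (19.3). The strongest lay in intron 20, 141.88 kb from the 5′ end, at 121.8 and 119 in the libraries (120.5 ± 1.92, SD, n = 2; pooled 242). Its core matched the consensus without a mismatch. These introns are numbered in the principal transcript of the annotation.

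Tek encodes the angiopoietin receptor Tie2. Its record lies on chromosome 4 (94739289 to 94874976, plus strand). With 3 summits in 336 kb it had the fewest per length of the members, 0.894 per 100 kb, and 16.6% of protein-coding genes had fewer. Its nearest and strongest summit lay 69.38 kb upstream in an intron of Ift74, an intraflagellar transport gene, with Lrrc19 as the nearest protein-coding 5′ end at 19.76 kb. It had 91.9 and 81.5 in the libraries (86.7 ± 7.38, SD, n = 2; pooled 175). The others lay in intron 9 (pooled 59.0) and 161.62 kb from the 5′ end, beyond the gene (95.05). This last site was higher in replicate 2, at 40.6 and 55.3. It was the one Tek summit with a core, while the upstream site had a best match of 3 mismatches and the intron 9 site of 5. Counted from the 5′ end of any annotated Tek transcript, the nearest summit was at 22.79 kb.

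Tie1 encodes the orphan receptor that pairs with Tie2. Its record (chromosome 4, 118471191 to 118490061, minus strand) held no summit, and the nearest to its 5′ end was 43.83 kb away, downstream of the gene. That summit was the third weakest of the 91, with 6.64 and 7.41 in the libraries (7.03 ± 0.547, SD, n = 2; pooled 14.3). The strongest lay 76.41 kb upstream in an intron of Cfap57, with 131.6 in replicate 1 and 79.4 in replicate 2 (105.5 ± 36.9, SD, n = 2; pooled 212). The protein-coding 5′ end nearest to it was that of Tmem125, at 22.43 kb. The conservative list had a summit nearer to the 5′ end, at 27.4 kb. Among the 44533 strongest peaks of each library alone, the nearest was at 61.8 kb in replicate 1 and 27.4 kb in replicate 2. No relaxed peak of the pooled list lay within 10 kb of the Tie1 5′ end.

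Both junction genes had a summit within 10 kb of the 5′ end. Cdh5, which encodes VE-cadherin, had 14 summits, all outside its record (chromosome 8, 104101625 to 104144511, plus strand). The nearest, 2500 bp upstream, had 32.7 and 46.2 in the libraries (39.4 ± 9.51, SD, n = 2; pooled 79.1), and all 14 bases of its core were repeat-masked. Upstream of it a group of 4 summits lay 68.28 to 73.90 kb from the 5′ end, led by the strongest Cdh5 site at 72.77 kb, with 139.8 and 110.4 (125.1 ± 20.8, SD, n = 2; pooled 249.6). A further pair sat just beyond the 3′ end, at 43.16 and 44.87 kb from the 5′ end, with pooled signals of 25.9 and 124.

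Pecam1 encodes the adhesion protein CD31. Its record (chromosome 11, 106654217 to 106750628, minus strand) held 5 of its 10 summits. The nearest, 5.47 kb downstream of the 5′ end, had 15.9 and 17.5 in the libraries (16.7 ± 1.11, SD, n = 2; pooled 31.6), and one 7.96 kb downstream had 67.0 and 51.8 (pooled 119). These distances depend on the record, which starts 35.37 kb upstream of the principal transcript: from the principal 5′ end the nearest summit was 27.41 kb away. The strongest site lay 122.68 kb downstream of the 5′ end, beyond the 3′ end, with 114 and 83.4 (98.9 ± 21.9, SD, n = 2; pooled 200.5), and the nearest protein-coding 5′ end was that of Tex2.

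Nos3 encodes the endothelial nitric oxide synthase, the source of vasodilator nitric oxide. Its record lies on chromosome 5 (24364810 to 24384474, plus strand). It had 19 summits, 8.65 per 100 kb, and 97.5% of protein-coding genes had fewer per length. Its neighbourhood also held 10 protein-coding 5′ ends, against a median of 5 over all protein-coding genes. The strongest site of any member lay 3.80 kb upstream of Nos3 and was also its nearest, at 158 and 142.7 in the libraries (150.4 ± 10.9, SD, n = 2; pooled 299). It ranked 154 in the optimal list, and the next site upstream, at 7.12 kb, had 92.4 and 63.9 (pooled 157). Both lay between Nos3 and Kcnh2, which encodes a cardiac potassium channel and starts 9.40 kb from the stronger site. Inside the record a summit lay in exon 25 (pooled 66.9), and another lay just past the 3′ end in a coding exon of Atg9b, an autophagy gene (50.7).

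The SoxF genes, which encode transcription factors of endothelial and lymphatic development, differed among themselves. Sox18 had 11 summits, Sox7 had 9 and Sox17 had 3, in windows of about the same length, since these are the shortest members (1.80 to 7.06 kb). Sox7 lies on chromosome 14 (63943673 to 63950732, plus strand), Sox17 on chromosome 1 (4490931 to 4497354, minus strand) and Sox18 on chromosome 2 (181669836 to 181671640, minus strand). None had a summit inside its record.

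The Sox7 summit, 123 bp upstream of the 5′ end, had 7.91 and 6.45 in the libraries (7.18 ± 1.03, SD, n = 2; pooled 15.9), above 6.91% of optimal peaks. It was in the conservative list, a shorter list of the authors that also holds summits absent from the optimal one. It was not among the 44533 strongest peaks of either library alone, where no member had a summit within 1 kb. The strong sites near Sox7 lay far on either side. Upstream, 5 summits lay 51.68 to 82.70 kb away in or at Pinx1, which encodes a telomerase inhibitor, with pooled signals of 57.4 to 195. Downstream, the strongest lay at 103.94 kb with 110.3 and 107.6 (108.9 ± 1.88, SD, n = 2; pooled 219), and Prss51 had the nearest protein-coding 5′ end.

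Sox17 had its nearest and strongest summit 19.38 kb upstream in intergenic sequence. The libraries gave 48.1 and 37.5 there (42.8 ± 7.47, SD, n = 2; pooled 84.1), the lowest value of a strongest site among the 10 members. Its other summits lay 80.44 kb downstream (77.0), on the side of the photoreceptor gene Rp1, and 74.39 kb upstream (22.5).

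Sox18 had 3 summits within 10 kb, all upstream, at 4996 bp, 5.70 kb and 7.34 kb. The strongest of them, at 7.34 kb and 1.33 kb from the 5′ end of the elongation factor gene Tcea2, had 140.4 and 124 in the libraries (132 ± 11.4, SD, n = 2; pooled 264). The nearest, at 4996 bp, was higher in replicate 2, with 8.57 and 16.2 (12.4 ± 5.42, SD, n = 2; pooled 26.8). In the conservative list the nearest summit was at 4.10 kb. On the other side, a pair of summits lay 11.89 and 12.23 kb downstream of the 5′ end, with pooled signals of 146 and 66.1.

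**Figure D3:**
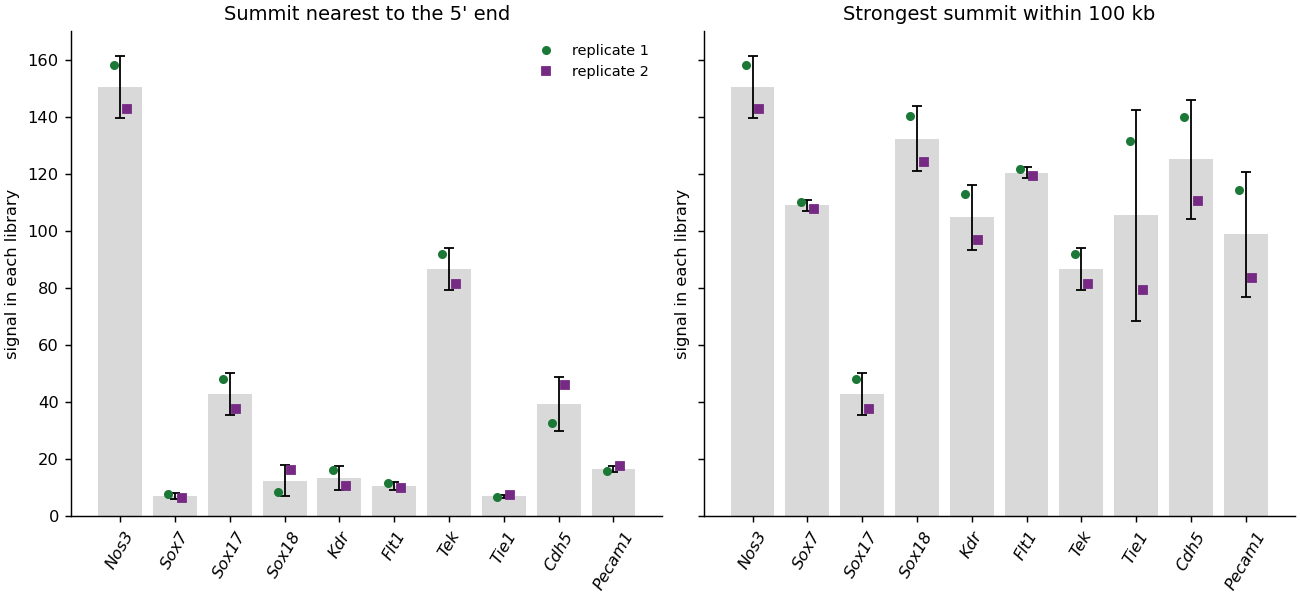
Signal in each library (y axis) of the summit nearest to the 5′ end and of the strongest summit within 100 kb, for each of the 10 genes (x axis). Bars are means and error bars SDs over the 2 libraries, and points are the libraries. Only Nos3 and Tek have a nearest summit with a mean above 50, and among strongest summits Sox17 is lowest at 42.8.

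By pooled signal and by library means alike, the order of the strongest sites was Nos3, Sox18, Cdh5, Flt1, Sox7, Tie1, Kdr, Pecam1, Tek and Sox17. Of the steps between neighbours in this order, only 3 were larger than the SDs of both: those from Nos3 to Sox18, from Flt1 to Sox7 and from Tek to Sox17. These SDs also hold the lower level of replicate 2 at most peaks, since libraries were not scaled. Within each library, the steps from Nos3 to Sox18, Sox18 to Cdh5, Flt1 to Sox7, Pecam1 to Tek and Tek to Sox17 kept their direction. The other steps turned in 1 library. The strongest sites of Tie1, Kdr and Pecam1, at means of 105.5, 104.8 and 98.9, changed order between the libraries.

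The genes differed in how many summits surrounded them. Per 100 kb of window the members had a median of 3.29 summits, against 2.94 over all protein-coding genes, and 6 of 10 lay at or above that value. Nos3 (8.65), Cdh5 (5.76), Sox18 (5.45) and Sox7 (4.35) were highest, Pecam1 (3.37) and Tie1 (3.20) followed, and Flt1 (2.47), Kdr (2.44), Sox17 (1.45) and Tek (0.894) were lowest. Nos3 and Sox18 shared their windows with many other genes, at 10 and 11 protein-coding 5′ ends, while Cdh5 had 14 summits with 2 such ends, its own and that of Bean1. Whether the number of neighbouring genes plays a part in these counts was not tested.

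Of the 91 summits, 43 lay upstream of the member's record, 12 inside and 36 downstream, with median signals of 66.8, 57.3 and 89.4. By class, 40 were intergenic (43.96%, against 35.03% of optimal peaks), 35 intronic (38.5%, against 43.7%), 11 within 1 kb of any annotated 5′ end (12.1%, against 14.1%), 3 in coding exons and 2 in other exons.

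In signal and repeatability the summits around the endothelial genes spanned the optimal list. Their pooled signals ran from 12.3 to 299 with a median of 68.6, against 60.8 for the list. For summits within 50 kb of the records the median was 53.2, below that of the list. From its weakest to its strongest quartile, 22, 19, 23 and 27 of the 91 fell in each. Both libraries held 89 of 91 in their relaxed lists (97.8%), against 97.1% of optimal peaks. The conservative list held 83 (91.2%), against 89.4% of optimal peaks, and the 8 it left out had signals of 12.3 to 23.6. Replicate 2 was lower than replicate 1 at 65 of the 89 (73.0%), with a median log2 ratio of replicate 2 to replicate 1 of -0.23, against 74.3% and -0.22 for optimal peaks in general.

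The central 95% of the ratio was taken over optimal peaks in the same signal decile, so a few peaks of any set lie outside it. At 4 of the 89 summits the ratio did, near the share that such a range leaves outside. These were the strongest Tie1 site (log2 ratio -0.73), the Cdh5 site 68.28 kb upstream (-1.46), the nearest Cdh5 site (0.50) and the Tek site beyond the gene (0.45). At Tie1 the sites 76.41 and 86.26 kb upstream kept their order, with 131.6 and 102.9 in replicate 1, and 79.4 and 71.6 in replicate 2. At Cdh5 the nearest site (32.7 in replicate 1, 46.2 in replicate 2) was below the site 69.25 kb upstream (41.1, 27.1) in replicate 1 and above it in replicate 2.

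**Figure D4:**
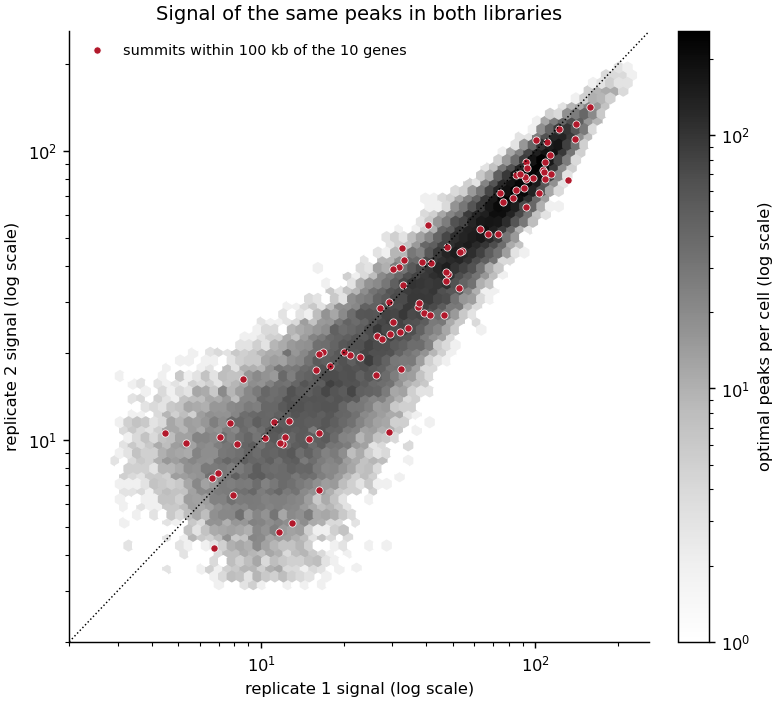
Signal in replicate 1 (x axis, log scale) against replicate 2 (y axis, log scale) for the optimal peaks found in both libraries (grey, shaded by number) and for the summits within 100 kb of the 10 genes (red), with the line of equality dotted. The 89 red points lie within the grey cloud, and 65 lie below the line.

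The CTCF core, a consensus of 14 bases searched on both strands within 50 bp of the summit with at most 2 mismatches, was found at 73 of the 91 summits. This is 80.2% (95% exact binomial interval 70.6 to 87.8%, counting error only), and the interval holds the share of all optimal peaks, 73.5%. The interval treats the 91 summits as independent, although they cluster around a few genes, so it may be too narrow. All 11 Sox18 summits had a core, as did 12 of 14 at Cdh5, 14 of 19 at Nos3, 8 of 9 at Flt1, 7 of 9 at Sox7, 6 of 7 at Tie1, 5 of 6 at Kdr, 7 of 10 at Pecam1, 2 of 3 at Sox17 and 1 of 3 at Tek. Summits with a core had a median signal of 83.5 and those without one of 30.2, against 78.7 and 31.3 among optimal peaks. In the libraries the medians with and without a core were 41.8 and 16.6 in replicate 1, and 39.8 and 17.6 in replicate 2. The site 69.38 kb upstream of Tek had no core at a pooled signal of 175. By the number of mismatches in the best match, 13 summits with 0 had a median signal of 93.3, 25 with 1 of 139.8, 35 with 2 of 43.1 and 14 with 3 of 22.8. Over optimal peaks these medians were 138, 87.8, 52.9 and 36.4.

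Of the 73 cores, 29 held a CpG (39.7%, against 33.6% over optimal peaks with a core), among them all printed cores but those of Sox18 and Tek. Methylation of a CpG in the core can lower CTCF binding, and methylation was not measured here. At 12 of the 73, at least 7 of the 14 bases were repeat-masked (16.4%, against 18.1%), and these included the nearest Cdh5 and Pecam1 sites and the Sox7 promoter site. Flt1 held 5 of the 12, more than any other member.

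RefSeq promoter sequences (GRCm38.p6, 250 bases before to 50 after the start) were matched for 4 members, Kdr, Flt1, Tek and Tie1. A core with at most 2 mismatches was present in those of Kdr and Flt1, and in 16.2% of RefSeq genes with a promoter sequence. Neither promoter had an optimal summit within 1 kb. A match of letters is a description and not a bound site.

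On either side, most members were flanked by cores that face each other. Taking the nearest summit with a single best core left and right of each record, 6 of 10 had a plus strand core on the left and a minus strand core on the right (Nos3, Sox7, Sox18, Tek, Cdh5 and Pecam1), against 28.8% of protein-coding genes. At Sox17 the cores pointed apart, and at Kdr, Flt1 and Tie1 they lay on the same strand. Between the flanking sites no protein-coding 5′ end other than the member's own was found at 6 of 10 (Nos3, Sox17, Sox18, Kdr, Flt1 and Cdh5), against 26.1% of protein-coding genes. Nos3, Sox18 and Cdh5 met both conditions, 3 of 10, against 8.35%. The members' windows of 100 kb around the record held a median of 3.5 protein-coding 5′ ends, against 5 over all protein-coding genes. Their median length was 31.3 kb, against 17.4 kb. Whether gene density or length plays a part in these counts was not tested.

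These intervals were short at the 3 genes. They spanned 26.43 kb at Nos3, 16.89 kb at Sox18 and 45.66 kb at Cdh5, while the median was 104.6 kb over the members and 115.8 kb over protein-coding genes. At Nos3 the interval ran from the printed core 3.80 kb upstream (pooled signal 299) to the site in Atg9b, 2.96 kb beyond the 3′ end (50.7). At Cdh5 it ran from the site 2500 bp upstream (79.1) to one 0.28 kb beyond the 3′ end (25.9). At Sox18 it ran from the site 4996 bp upstream (26.8) to the one 11.89 kb from the 5′ end (146). The widest was that of Tek, 377 kb with 6 protein-coding 5′ ends. The left flank of Tek was weak (27.9) and lay 215.76 kb from the record, beyond the 100 kb window and the stronger upstream summit without a core. Sox7 was flanked by strong sites (195 and 219) that are 174.6 kb apart. Weak summits set the flanks of Tie1, at 14.3 and 12.3, and the weaker one was not in the conservative list. Summits with several equally good cores were not used as flanks. Among them were the strongest Tie1 site, the Sox7 promoter site and the Sox7 site 51.68 kb upstream (pooled signal 180). Both of these Sox7 sites lay between the flanks given for Sox7. At both, the equally good core nearest to the summit was on the minus strand. With that core as the left flank, Sox7 would not count among the members with facing cores.

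**Figure D5:**
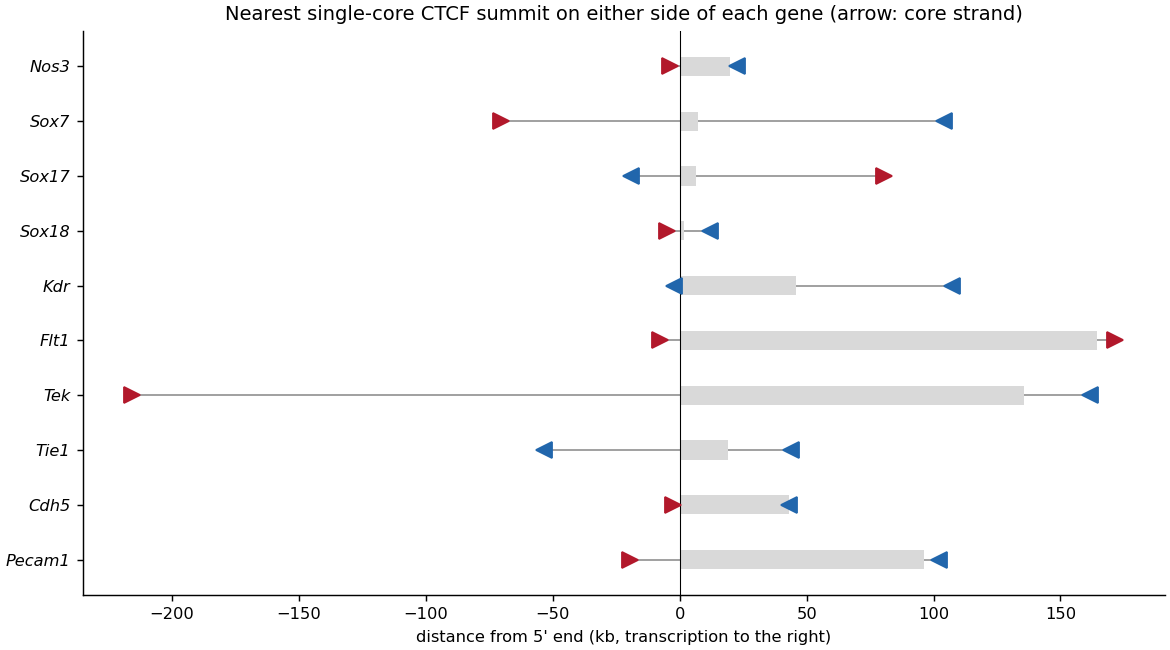
Nearest summit with a single best core on either side of each gene record (arrows), by distance from the 5′ end (x axis, kb, transcription to the right), with the record in grey and arrows showing the direction of the core relative to transcription. Arrows point toward each other at 6 of the 10 genes and away from each other at Sox17.

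The nearest single core pointed toward the 5′ end at 8 of 10 members, all except Kdr and Sox17, against 52.4% of protein-coding genes. At Nos3, Sox7, Sox18 and Cdh5 this core was upstream and so read in the direction of transcription. At Flt1, Tek, Tie1 and Pecam1 it was downstream and read against it. The nearest single core was far from the 5′ end at Tek (161.62 kb), Sox7 (70.61 kb) and Tie1 (43.83 kb, pooled signal 14.3). At Sox7, nearer core-bearing summits 0.12 and 51.68 kb upstream had several equally good cores and were left out. The core nearest to each of these summits pointed away from the 5′ end.

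In the relaxed pooled list, which holds 300000 peaks of any strength, 7 of 10 members had a summit within 1 kb of the 5′ end, against 58.6% of protein-coding genes. Apart from the Sox7 site these were 8 summits with signals of 5.41 (Sox18) to 9.20 (Nos3), where the list's lowest value was 5.29 and its median 6.63. Both libraries held a matching peak only at the 2 Nos3 summits, 105 and 572 bp upstream, at 5.15 and 3.47 and at 4.11 and 4.57. At the others 1 library or neither held one.

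Other endothelial genes, taken from lists of 56 genes, had a summit within 10 kb of the 5′ end in 38 cases (67.9%), beside 50.8% of protein-coding genes. These comprised 15 of 22 transcription factor genes, 9 of 12 VEGF and angiopoietin genes and 14 of 22 junction and surface genes. Within 1 kb the count was 11 of 56, beside 21.4% of protein-coding genes. All 56 had a summit within 100 kb of the record, beside 90.4% of protein-coding genes.

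Among the transcription factor genes the strongest sites within 10 kb were at Foxc2, a forkhead factor gene of lymphatic vessels (pooled signal 295, 2.69 kb upstream), at Lyl1, a helix-loop-helix factor gene (203, 7.90 kb downstream), and at Foxc1 (194, 5.27 kb upstream). The libraries gave 170.1 and 127.6, 104.1 and 98.8, and 96.2 and 96.3 at these sites. Among the signalling genes they were at Vegfa, which encodes the ligand of Kdr and Flt1 (279.8, 0.52 kb upstream), at Nrp1, a VEGF co-receptor gene (224, 4.82 kb downstream), and at Pgf, a ligand gene of Flt1 (205, 8.15 kb downstream). The Vegfa site had 149 and 131 in the libraries and lay within 1 kb of the 5′ end, where its receptor genes Kdr and Flt1 had no optimal summit. At Nrp1 the libraries gave 117 and 106, and at Pgf 113 and 92.1. Among junction and surface genes they were at Icam2, an adhesion molecule gene (228, 3.95 kb upstream), at Notch4, an endothelial Notch receptor gene (219, 8.58 kb upstream), and at Thbd, which encodes thrombomodulin (202.6, 1.19 kb upstream). The libraries gave 120 and 108 at Icam2, 123 and 98.5 at Notch4, and 90.9 and 113 at Thbd.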

How the data were processed

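CTCF ChIP-seq peaks of newborn mouse heart were analysed from 5 narrowPeak lists on mm10, per the labels. According to the text files deposited beside them, the relaxed lists (300000 peaks each) were called on replicate 1, on replicate 2 and on both together, each against a control not used here, and the optimal (44533) and conservative (43221) lists were derived from these by the authors. Aligner, peak caller and versions: not given in the sources used here. Signal is the authors' own value per peak and describes peaks within a list. In the pooled lists it comes to roughly the libraries' values added together, and libraries were not scaled. The deposited q-value score was not used. Offsets in the other deposited column gave summits, 1-based.

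Gene records, transcripts and 5′ ends were from GENCODE M21, and sequence from RefSeq GRCm38.p6. Replicate signals are those of the relaxed peak with a summit within 100 bp. Exact binomial intervals are at 95%. Python 3.11.15, numpy 2.4.6, pandas 2.3.3 and scipy 1.17.1 were used. On simulated data, the best match lay at the planted place in 100% of windows with a planted core of 0 mismatches. This share was 99.4%, 99.2% and 87.4% with 1, 2 and 3 mismatches. Planted distances and flanking strands were recovered in 100%, and 1.70% of 2000 random windows held a core.

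Positions used 44518 of the 44533 optimal peaks, those on assembled chromosomes. The members and lists were chosen with earlier results of these data known. Genes named besides the members are those nearest to each strongest summit, those between a 5′ end and its nearest summit (1 is not reported here), and the 3 genes per list with the strongest summit within 10 kb; Kcnh2, Atg9b, Pinx1, Cfap57, Rp1 and Bean1 were named after their values were seen. The counts of core direction, relaxed peaks and genes alone between cores were also added then. Alternatives covered peak lists, libraries, signal, windows, mismatches, library scaling and 5′ ends.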

Additional observations from a re-analysis of the deposited data

How the results depend on the processing

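No paired analysis was possible because the 2 libraries form 1 group. No test was run, so alternatives show how counts and values move. With a library left out, the peak list was the 44533 strongest relaxed peaks of the other library. Its length was thus set to that of the optimal list, and like counts of summits do not measure reproducibility.

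The count of members with a summit within 10 kb (7) stayed at 7 in the conservative list and was 6 with either library left out. From the nearest 5′ end of any transcript it was also 7, but this choice can only shorten a distance. From the principal transcript's 5′ end, the nearest Pecam1 summit (27.41 kb) fell outside 10 kb. In windows of 5 and 50 kb, 6 and 9 of the 10 members had one, against 38.3% and 82.7% of protein-coding genes. A threshold that kept only optimal peaks at or above the median signal gave 4 within 10 kb, against 31.4% of protein-coding genes. The count within 1 kb (1) was 0 with that threshold and 0 in the strongest peaks of either library alone. The 91 summits became 50 with the threshold, 53 in a 50 kb window and 154 in a 200 kb window, and 91 to 97 with a library left out. Their median signal of 68.6 was 53.2 at 50 kb, below the list's 60.8, and 147.8 with the threshold, and 28.6 to 34.3 in single libraries, whose scale is lower. The share with a core (80.2%) was 41.8% and 95.6% with at most 1 and 3 mismatches (42.4% and 91.3% of optimal peaks), 71.4% within 25 bp of the summit (66.8% of optimal peaks), 92.0% with the threshold and 73.2 to 82.4% with a library left out. Facing flanks (6) ranged from 4, with at most 1 mismatch, to 6. The median distance (4.40 kb) was 3.95 kb in the conservative list, 4.79 to 5.24 kb with a library left out and 33.7 kb with the threshold, above the 21.6 kb of all protein-coding genes, as weak nearest sites of Sox7, Sox18, Kdr, Flt1, Tie1 and Pecam1 dropped out. In the other endothelial lists the count within 10 kb (38 of 56) was 27 with the threshold, against 31.4% of protein-coding genes. It was 35 in the conservative list, and 36 and 38 with a library left out. In windows of 5 and 50 kb it was 30 and 54, against 38.3% and 82.7% of protein-coding genes. The median library mean of the 17 nearest and strongest sites (86.7) was 94.4 after scaling replicate 2 to replicate 1 and 79.4 to 91.9 with 1 library; after scaling, replicate 2 was lower at 41 of 89 summits. Leaving out libraries for this value, and the threshold for the lists, were chosen after seeing the data. Read depth is unknown and weak peaks are the least certain.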
